A study of Mus musculus with 5 samples.

Results

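The genes described here are 88 genes of the cell cycle and of DNA replication, measured with 155 probe sets of an oligonucleotide array that names 12393 genes on 22690 probe sets. Members were taken by symbol from the array's annotation: cyclins (Ccn), cyclin-dependent kinases (Cdk) and their inhibitors (Cdkn), the Cdc and Mcm genes, replication factor C (Rfc), subunits of DNA polymerases alpha, delta and epsilon (Pola, Pold, Pole), and Fen1, Pcna, Mki67, Top2a, Plk1, Rrm1 and Rrm2. Cdkn1a, Ccng1 and the Cdc42 names were left out by the same rule. The patterns need a digit after the letters, so Pole and Ccnf are not members and were read with the other proliferation genes. The rule reads symbols and no measured value, but it was chosen with earlier results of these data known. Each gene is represented by its brightest probe set, and 41 of the 88 genes have further probe sets, which are given for genes that the results turn on. Ccnb1, a mitotic cyclin, has no probe set with 1 symbol in the annotation used here.

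Liver RNA of C57B/L mice was compared between feeds, with 1 array of pooled livers for each of 5 groups. Feeding began after 2 weeks of maintenance in mice that were 8 weeks old. The groups were standard chow for 1 week, an atherogenic diet for 1 week, chow for 10 weeks, the atherogenic diet for 10 weeks, and the diet for 10 weeks with atorvastatin during the last 3. An atherogenic diet is a feed that raises blood cholesterol, and atorvastatin is a statin, which inhibits the rate-limiting enzyme of cholesterol synthesis. No transgene or deletion is named for any group, and the sources used here do not give the sex, the make-up of the diet or the number of livers in a pool. The source name of the 1-week diet sample says chow, whereas its title, description and protocols say atherogenic diet, and it was grouped by its title. In what follows, 5 signals given in a row belong to 1-week chow, 1-week diet, 10-week chow, 10-week diet and diet with atorvastatin, in that order.

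Each group is 1 array, so there is no replicate error, no test and no p-value, and the number of arrays limits the precision of every value. A signal is a probe set's brightness on a linear scale, set to the same trimmed mean of 500.2 on every array. Signals of 138.9 or less, the 40th percentile of all signals, were held at that floor. A gene was taken as measured where at least 1 of the 2 arrays compared gave a signal above the floor, and a ratio with 1 side at the floor is a bound, written "at least". Genes that differed by 2-fold or more, a log2 ratio of 1 or more in size, were counted, and the same count over all genes is printed beside each as the background. The comparisons share arrays: the 10-week chow array enters 3 of the 5, and the 10-week diet, atorvastatin and 1-week chow arrays enter 2 each, so the ratios are not independent of one another.

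The cell cycle is driven by kinases that act only when bound to a cyclin. D-type cyclins with Cdk4 or Cdk6 respond to growth signals, cyclins E and A with Cdk2 carry the cell into and through DNA replication, and cyclins A and B with Cdk1 bring it to mitosis, while CDK inhibitors hold the kinases back. Replication needs the Mcm helicase loaded at origins, the DNA polymerases, the sliding clamp Pcna with its loader replication factor C, the flap endonuclease Fen1 that finishes lagging strand pieces, and ribonucleotide reductase to supply deoxynucleotides. Hepatocytes of an adult liver are mostly quiescent, and transcripts of these genes are best known from liver regeneration. The symbol patterns also take in genes with other work: Cdk7, Cdk8, Cdk9 and Cdk12 act in transcription, Cdc73 belongs to the Paf1 complex of transcribing RNA polymerase, Cdc5l acts in splicing and Cdc37 is a co-chaperone of Hsp90.

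Of the 88 genes, 46 were above the floor on all 5 arrays, which is 52.3%, and 23 were at the floor on all 5, which is 26.1%. The other 19 were above the floor on 1 to 4 arrays. Over all 12393 genes the corresponding shares were 55.9% above and 20.8% at the floor. When the members were divided by function, 60 genes of the cell cycle machinery and replication fork had 19 at the floor on all arrays, or 31.7%, and 25 above it on all arrays, or 41.7%. Of the 28 transcription CDKs and other genes that carry these symbols, 4 were at the floor on all arrays, or 14.3%, and 21 were above it on all, or 75.0%. No test was made of these shares.

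The genes at the floor on all 5 arrays included the genes most used to mark dividing cells. They were Mki67, the Ki-67 antigen, and Top2a, the topoisomerase that untangles chromosomes before mitosis. They were also Ccne1 and Ccne2, the E-type cyclins, and Ccnb2 and Ccnb3 of the B type. Among licensing and helicase genes 6 of 11 lay at the floor: Cdc6, which loads the helicase, Cdc45, which joins it to the fork, the kinase Cdc7, and Mcm5, Mcm6 and Mcm9. Pola1 and Pola2 of the priming polymerase, Rfc3 and Rfc4 of the clamp loader, and Cdc23, Cdc25c and Cdc27 were at the floor as well. The rest were Cdk14, Ccnb1ip1, Cdk5r2 and Cdk5rap2. A signal at the floor was not distinguishable from the dim end of the array and does not show that a transcript was absent.

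**Figure D1:**
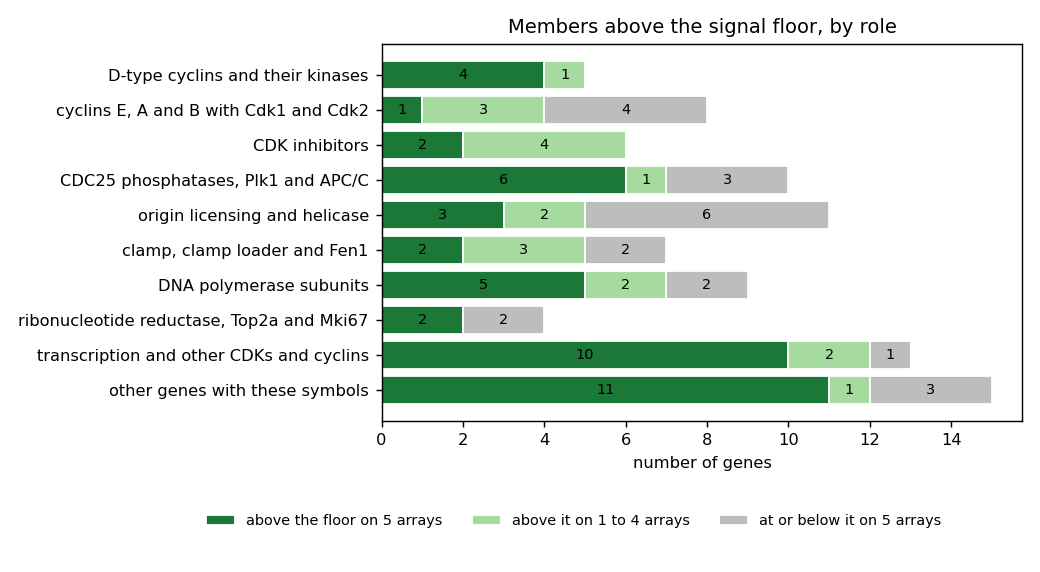
Number of members (horizontal axis) in each functional group that lay above the floor signal on 5 arrays, on 1 to 4 arrays or on no array. Of 11 licensing and helicase genes 6 were at the floor on all arrays, and of 13 transcription and other CDKs and cyclins 1 was.

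The same division by function showed in the promoters, which the symbol rule did not use. The 250 bases before each annotated start were read from RefSeq (GRCm38.p6) for 77 of the 88 genes. The letters TTTGGCGC, TTTCGCGC, TTTCCCGC and TTTGCCGC, forms of the site bound by E2F factors, were searched on both strands, and matches of different forms may overlap. Of 51 cell cycle and replication genes with a promoter 11 held at least 1 match, or 21.6%, and of the 26 other genes 0 did. A match was held by 583 of all 27025 genes with a promoter, or 2.16%, and of the 9882 that are named on the array 3.37%. The 11 genes were Cdc25a, Cdc6, Cdk1, Cdk2, Cdkn2a, Mcm5, Mcm6, Mcm7, Pola1, Pole4 and Rfc3. Of these, Cdc6, Mcm5, Mcm6, Pola1 and Rfc3 were at the floor on all 5 arrays. They are 5 of the 16 core genes with a promoter at the floor, or 31.2%, against 6 of 35 above it on any array, or 17.1%. Over all array genes the same shares were 2.65% at the floor and 3.55% above it on any array, the reverse order. The counts of 5 and 6 genes are small, and the difference was not tested. The CCAAT letters, on either strand, were in 58.8% of core promoters and 37.5% of all, and TTTGAA, the core of the CHR element of mitotic genes, in 21.6% and 18.3%. Among genes named on the array the shares were 39.8% for CCAAT and 13.8% for TTTGAA. Among the other members they were 42.3% and 11.5%. A match is a description of the letters, not of a bound site.

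The promoters of Mcm5 and Mcm6 are shown because they alone among the members held more than 1 E2F match, that of Cdk1 because it alone held all 3 kinds of letters, and that of Fen1 because Fen1 had the largest ratio of any member. Each is written 5′ to 3′ on the gene's strand, with matches to the E2F letters, CCAAT and TTTGAA, on either strand, in capitals. Cdk1, the mitotic kinase, has chr10:69352913-69353162 on the minus strand, with 1 E2F match that ends 124 bases before the start, 3 CCAAT matches and 2 of TTTGAA. Mcm5 has chr8:75109259-75109508 on the plus strand, with 2 overlapping E2F matches and 2 of CCAAT. Mcm6 has chr1:128359706-128359955 on the minus strand, with 3 E2F matches, of which 2 overlap, and 2 of CCAAT. The window before the first listed Fen1 start, chr19:10204394-10204643 on the minus strand, has none of the E2F or CCAAT letters and 1 match of TTTGAA.
Cdk1: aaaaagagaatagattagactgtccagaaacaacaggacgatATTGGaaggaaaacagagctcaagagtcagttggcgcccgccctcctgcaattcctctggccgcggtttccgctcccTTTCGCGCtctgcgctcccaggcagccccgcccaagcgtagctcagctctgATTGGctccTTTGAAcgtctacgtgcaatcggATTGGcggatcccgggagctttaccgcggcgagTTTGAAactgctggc
Mcm5: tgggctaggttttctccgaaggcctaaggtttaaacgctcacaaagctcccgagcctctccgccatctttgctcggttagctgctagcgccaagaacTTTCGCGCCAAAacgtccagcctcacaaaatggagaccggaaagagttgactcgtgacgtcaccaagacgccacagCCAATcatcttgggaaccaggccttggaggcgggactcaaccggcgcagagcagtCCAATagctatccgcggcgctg
Mcm6: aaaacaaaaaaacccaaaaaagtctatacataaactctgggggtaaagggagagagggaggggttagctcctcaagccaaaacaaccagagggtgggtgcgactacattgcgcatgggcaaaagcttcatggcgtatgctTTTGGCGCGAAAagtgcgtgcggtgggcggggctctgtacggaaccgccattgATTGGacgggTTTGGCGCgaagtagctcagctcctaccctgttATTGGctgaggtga
Fen1: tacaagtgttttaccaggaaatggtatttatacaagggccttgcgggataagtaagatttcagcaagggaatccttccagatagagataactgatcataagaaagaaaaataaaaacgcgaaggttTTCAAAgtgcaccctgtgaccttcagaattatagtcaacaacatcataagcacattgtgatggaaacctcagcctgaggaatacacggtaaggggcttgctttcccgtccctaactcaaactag

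Among members above the floor on all arrays, levels differed between arrays about as much as those of other genes did. The highest signal over the lowest had a median of 1.62-fold over the 46 members, from 1.18-fold for the helicase subunit Mcm4 to 3.40-fold for Ccnd1, and 11 of them, or 23.9%, reached 2-fold. Over all 6929 such genes the median was 1.64-fold and 22.2% reached 2-fold. The 1-week chow array held the lowest signal for 16 of the 46 members, or 34.8%, against 17.2% of all genes, and the 10-week chow array held the highest for 14, or 30.4%, against 19.2%. The 10-week diet array held the highest for 10, or 21.7%, against 27.0%. Over the 5 comparisons, 12 of 65 measured members passed 2-fold at least once, or 18.5%, against 1403 of 9818 genes, or 14.3%.

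The diet at 10 weeks, set against chow at 10 weeks, asked what prolonged atherogenic feeding changes in the liver. Among the 62 members measured, Fen1 and Rfc1 were at least 2-fold higher on the diet, 2 genes and a share of 3.23% against a background of 3.59% of all genes. On the lower side were 4 members, Rrm2, Ccng2, Cdc73 and Cdk16, a share of 6.45% against 3.07%. The median log2 ratio was 0.08 over the members and 0.05 over all genes, with 36 members positive and 26 negative. The members were thus spread about the same centre as other genes.

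At 1 week of feeding 57 members were measured, and 1 was past 2-fold in each direction. Cdk18, a CDK of the PCTAIRE group, was higher on the diet, a share of 1.75% against a background of 1.06%. Rrm1, the large subunit of ribonucleotide reductase, was lower, a share of 1.75% against 1.24%. The median log2 ratio was -0.01 over members and -0.03 over all genes.

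Atorvastatin given on the diet, set against the diet alone, had 64 measured members. At least 2-fold lower with atorvastatin were 4 members, Fen1, Ccnd1, Rfc1 and Cdk1, a share of 6.25% against a background of 2.12%. On the higher side there were 0, against 2.15% of all genes. The median was -0.07 over members and -0.02 over all genes. Set against 10-week chow instead, 58 members were measured. Pold2 was then the member past 2-fold on the higher side, 1.72% against 3.05%, and Ccng2, Cdk12, Rrm2 and Cdc73 were lower, 6.90% against 2.46%.

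The 2 chow arrays differ in time on chow and in age but not in feed, and their ratios show how far pools of unlike age stand apart. Among 61 members measured, Ccnd1 and Cdk12 were at least 2-fold higher at 10 weeks, 3.28% against a background of 2.44%, and 0 were lower, against 1.95%. The median over members was 0.05 and over all genes 0.01.

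**Figure D2:**
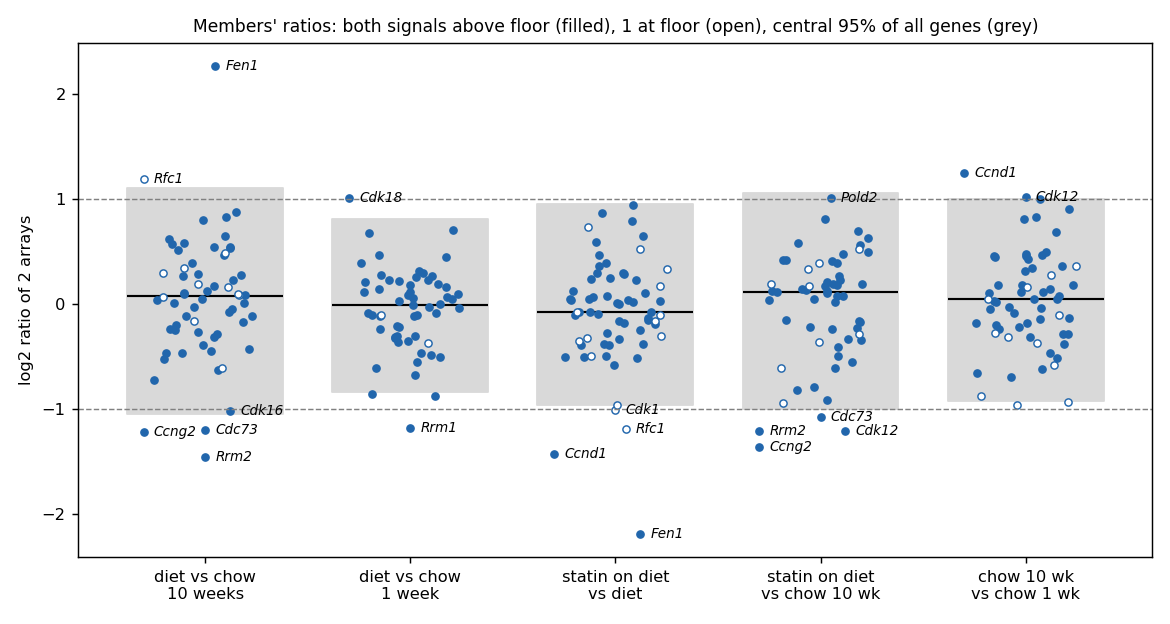
Log2 ratio of 2 arrays (vertical axis) for each measured member in the 5 comparisons, with the member median as a black line, 2-fold as dashed lines and the central 95% of all genes in grey. Most members lie within the grey range in every comparison, and Fen1 stands farthest out, at 2.27 for the diet and -2.19 for atorvastatin.

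D-type cyclins and their kinases were the best detected cyclin group, with 4 of 5 above the floor on all arrays. Ccnd1, cyclin D1, the growth-responsive partner of Cdk4, had signals of 717.3, 1170, 1700, 2436 and 904.5. It was low on the 1-week chow and atorvastatin arrays and high on both other 10-week arrays. With atorvastatin it was 2.69-fold lower than on the diet alone, a log2 ratio of -1.43, and on chow it was 2.37-fold higher at 10 weeks than at 1 week. A difference of nearly the same size therefore separated the chow arrays, which received no drug. Its second probe set read 511.5, 961.3, 1798, 1405 and 609.5, with log2 ratios of -1.20 for atorvastatin against the diet and 1.81 for the chow pair. The dimmest probe set read 433.0, 416.2, 680.1, 390.3 and 413.9, with 0.08 and 0.65. For the diet at 10 weeks the probe sets of Ccnd1 gave 0.52, -0.36 and -0.80, so the direction of the diet ratio depended on the probe set.

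Ccnd2, cyclin D2, had signals of 498.5, 422.7, 363.6, 667.2 and 561.5, highest on the 10-week diet. Its log2 ratio for the diet at 10 weeks was 0.88, under the 2-fold mark, and its next probe set gave at least 0.48, with 10-week chow at the floor. Ccnd3, cyclin D3, read 559.2, 762.2, 607.1, 682.8 and 622.9, with the highest value on the 1-week diet array. The brightest probe set of Cdk4 varied little, at 363.3, 393.5, 412.0, 425.5 and 447.8. Its other probe sets were lowest on 10-week chow and gave a log2 ratio of 0.82 and, as a bound, 1.22 for the diet at 10 weeks, against 0.05 for the brightest. Cdk6 was above the floor on 2 arrays, at 179.0 on 1-week chow and 145.9 on the 10-week diet. By their brightest probe sets all 5 genes of the group had a positive log2 ratio for the diet at 10 weeks, with none past 2-fold. The median was 0.17, beside 0.05 over all genes. Of these ratios, Cdk4 gave 0.05 and Cdk6 at least 0.07 from a signal close to the floor. The other Ccnd1 probe sets gave -0.36 and -0.80, so the shared direction depended on the probe set.

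Of the later cyclins and their kinases, 1 of 8 was above the floor on all arrays, Cdk2, the kinase of S phase. Cdk2 read 190.1, 228.7, 333.3, 309.3 and 218.3, higher on the 10-week chow and diet arrays than on the other 3. Cdk1, the mitotic kinase whose promoter is printed above, read 61.6, 32.3, 178.1, 280.4 and 78.6. It was above the floor on the 10-week chow and diet arrays and below it on the other 3, and with atorvastatin it was at least 2.02-fold lower than on the diet. Cdk1 and Cdk2 thus shared their pair of highest arrays with Ccnd1. Ccna2, cyclin A2, read 270.9, 185.2, 124.5, 170.5 and 135.1, highest on 1-week chow. Its other probe set read 118.4, 153.6, 190.2, 133.7 and 175.2, highest on 10-week chow and below the floor on 1-week chow. Bounds on the log2 ratio of the chow pair were -0.96 and 0.45, so the probe sets of Ccna2 ordered the arrays differently.

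CDK inhibitors were all above the floor on at least 1 array. Cdkn1b, which binds and blocks cyclin E with Cdk2, read 248.4, 281.1, 466.5, 301.8 and 264.8, with 10-week chow alone above the rest. Its log2 ratio was 0.91 for the chow pair and -0.63 for the diet at 10 weeks, neither past 2-fold. Cdkn1c, an imprinted inhibitor of the same family, read 265.3, 146.3, 110.6, 35.9 and 175.6, above the floor on both 1-week arrays and with atorvastatin. Cdkn2c, an inhibitor of Cdk4 and Cdk6, read 540.4, 500.1, 749.9, 653.6 and 675.6, with all 10-week arrays above both 1-week arrays. Cdkn2a and Cdkn2b, the inhibitors of the neighbouring Ink4 genes, were above the floor on the 10-week diet array alone, at 176.9 and 155.2, close to the floor.

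The regulators of mitotic entry and exit had no member past 2-fold in any comparison. Cdc20, an activator of the anaphase-promoting complex, read 186.2, 186.5, 262.5, 191.4 and 235.6. Cdc25a, a phosphatase that activates the CDKs, read 228.0, 160.7, 201.9, 197.6 and 242.7. The lowest value of Cdc25a was on the 1-week diet array. Plk1, the polo-like kinase of mitosis, was above the floor only at 155.2 on 10-week chow and 231.2 with atorvastatin.

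**Figure D3:**
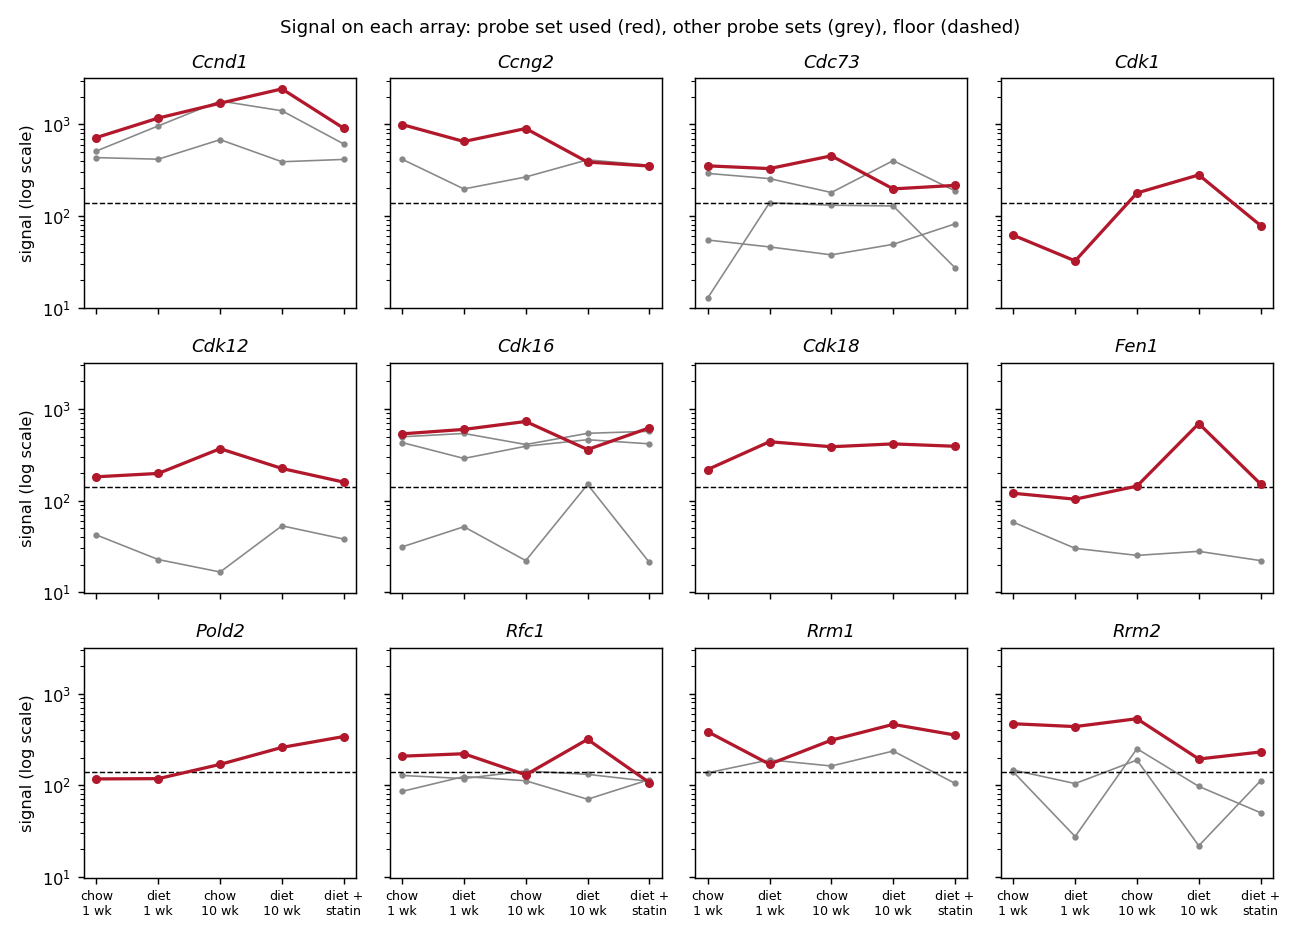
Signal (vertical axis, log scale) of named members on each of the 5 arrays, with other probe sets of the same gene as thin grey lines and the floor of 138.9 as a dashed line; lines only join points of 1 probe set. The brightest Fen1 probe set reaches 693.2 on the 10-week diet array and 151.5 or less on the other 4, while the other Fen1 probe set lies below the floor throughout.

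No licensing or helicase gene passed 2-fold in any comparison by its brightest probe set. Mcm4, a core subunit, read 195.6, 204.4, 222.0, 223.9 and 230.6, the narrowest range of any member above the floor on all arrays. Mcm7 read 460.3, 426.9, 620.4, 433.2 and 359.7, highest on 10-week chow, with a log2 ratio of -0.52 for the diet at 10 weeks. The next probe set of Mcm7 read 464.2, 248.3, 331.6, 603.3 and 528.4 and gave 0.86, the opposite direction. Mcm2 was above the floor only on the 10-week diet, at 148.6, and Mcm3 only on the 10-week diet and with atorvastatin, at 158.1 and 158.5. Mcm10, which helps to activate the helicase, read 691.4, 802.6, 746.6, 1033 and 791.1, highest on the 10-week diet and not past 2-fold.

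Fen1 had the largest ratio of all members. Its signals were 120.1, 103.5, 143.7, 693.2 and 151.5: the 10-week diet array was high and the other 4 lay near or below the floor. The diet ratio at 10 weeks was 4.82-fold, a log2 ratio of 2.27, and with atorvastatin the signal was 4.58-fold lower than on the diet, a log2 ratio of -2.19. Of 9818 measured genes, 33 were at least 2-fold higher on the 10-week diet array than on each other array, or 0.336%, and Fen1 was the member among them. At least 4-fold higher were 2 genes, Fen1 and the fatty acid binding protein Fabp5, a count that was chosen after the values were seen. The second Fen1 probe set read 58.0, 30.1, 25.2, 27.9 and 22.1, below the floor on every array, so it gave no second measurement of this difference. The brighter probe set is of the x type, whose probes may also bind other transcripts.

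The sliding clamp and its loader did not repeat the Fen1 pattern. Pcna, the clamp, read 1171, 641.4, 1111, 1352 and 1287, with the 1-week diet array alone low, at a log2 ratio of -0.87. Rfc1, the large loader subunit, read 207.2, 220.3, 129.7, 316.3 and 106.7. It was highest on the 10-week diet, but both 1-week arrays were also above the floor, and the bounds of at least 2.28-fold against 10-week chow and against atorvastatin rest on those 2 arrays being below it. Of its other probe sets 1 was below the floor on all arrays, and the other was above it on 10-week chow alone, at 142.9, so neither repeated the difference. Rfc2 read 289.8, 464.0, 577.8, 475.1 and 513.5, lowest on 1-week chow, with 1.99-fold for the chow pair. Rfc5 read 240.3, 150.6, 267.1, 269.3 and 85.0, and was below the floor with atorvastatin alone. For Fen1, Rfc1 and Rfc5 the atorvastatin array was below the 10-week diet array, at log2 ratios from -2.19 to -0.96, whereas Pcna and Rfc2 gave -0.07 and 0.11.

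The subunits of the replicative polymerases leaned the other way with atorvastatin. By their brightest probe sets, 6 of 7 measured subunits had a positive log2 ratio for atorvastatin against the diet. The median was 0.59, beside -0.02 over all genes. Against 10-week chow 6 of 6 had one, from 0.19 to 1.01, with a median of 0.49 beside 0.03 over all genes. All subunits were read from the same arrays, so their signs are not independent, and the lean was not tested. Pold2, an accessory subunit of polymerase delta, read 117.0, 117.8, 168.6, 258.3 and 339.6, highest with atorvastatin and 2.01-fold above 10-week chow. Pold1, the catalytic subunit, read 224.0, 192.0, 237.1, 181.0 and 349.3, and Pold4, the smallest subunit, 320.6, 332.1, 325.0, 485.7 and 568.5. Both were highest with atorvastatin and under 2-fold. Pole2, of polymerase epsilon, read 230.8, 235.7, 189.5, 168.3 and 253.5, a narrow range. Pole3 and Pole4, the histone-fold subunits, gave 0.87 and 0.65 for atorvastatin against the diet. The next probe set of Pole4 gave 0.90, and that of Pole3 gave -0.82. Against 10-week chow these next probe sets gave 0.36 for Pole4 and -0.17 for Pole3, so the direction for Pole3 depended on the probe set.

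Both ribonucleotide reductase subunits passed 2-fold, in different comparisons. Rrm2, the small subunit made in S phase, read 468.2, 436.0, 531.3, 193.0 and 230.3. Both long diet arrays were low and the other 3 were high, and the diet at 10 weeks was 2.75-fold below chow, a log2 ratio of -1.46. This probe set is of the x type, whose probes may also bind other transcripts. Its dimmer probe sets were below the floor on the 10-week diet and at 249.8 and 188.1 on 10-week chow, which gave bounds of -0.85 and -0.44 in the same direction. Rrm1, the large subunit, read 383.3, 169.3, 309.7, 461.0 and 352.5, with the 1-week diet array alone low, 2.26-fold below 1-week chow. Its other probe set read 136.3, 189.0, 161.9, 235.8 and 104.6 and gave, as a bound, a log2 ratio of at least 0.44 for the same comparison, the opposite direction.

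Transcription CDKs and other genes outside the core machinery made up 5 of the 12 members past 2-fold, and 24 of the 65 that were measured. Ccng2, an atypical cyclin linked to growth arrest, read 994.1, 649.6, 899.8, 387.6 and 350.3, low on both long diet arrays, at a log2 ratio of -1.22 for the diet at 10 weeks. Its other probe set read 416.2, 197.0, 266.2, 409.5 and 357.8 and gave 0.62. Cdc73 read 352.1, 328.7, 452.9, 197.3 and 215.5, also low on both long diet arrays, at -1.20, while its next probe set gave 1.16. For both genes the probe sets therefore disagreed in direction.

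Cdk16, a PCTAIRE kinase, read 534.6, 597.7, 729.4, 360.3 and 621.9, with the 10-week diet array alone low, at -1.02, and its next probe set gave 0.41. Cdk18, a relative of Cdk16, read 218.1, 438.6, 386.7, 415.4 and 391.2, so that 1-week chow was low and the other 4 arrays were alike. The 2.01-fold ratio of Cdk18 at 1 week thus rested on the low 1-week chow signal, whose source cannot be told with 1 array per group. Cdk12, a kinase of RNA polymerase, read 181.7, 197.7, 368.3, 223.9 and 158.9, with 10-week chow alone high. Its ratios of 1.02 for the chow pair and -1.21 for atorvastatin against 10-week chow both rested on that array.

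Without replicates, the agreement of probe sets is the check at hand on single ratios. Probe sets of a gene read the same pooled RNA on the same arrays, so their agreement does not measure variation between animals, pools or arrays. For genes with at least 2 probe sets above the floor, the brightest was compared with the next. For the diet at 10 weeks 13 members had such a pair, 6 agreed in sign, or 46.2%, and the median difference between the paired log2 ratios was 0.87. Over 2408 genes 58.0% agreed in sign and the median difference was 0.42. Of the 3 members whose brightest probe set passed 2-fold, Ccng2, Cdc73 and Cdk16, the second passed it in the same direction for 0 and had the opposite sign for 3. Of 139 such genes on the array, the second passed in the same direction for 17 and had the opposite sign for 47. For atorvastatin against the diet 8 of 14 member pairs agreed in sign, or 57.1%, as did 57.3% of all pairs. Agreement was 41.7% of 12 member pairs against 56.6% of all pairs for atorvastatin against chow, 30.8% of 13 against 56.0% for the chow pair, and 69.2% of 13 against 53.6% for the diet at 1 week. Ccnd1 was the member whose second probe set also passed 2-fold in the same direction, both for atorvastatin and between the chow arrays.

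**Figure D4:**
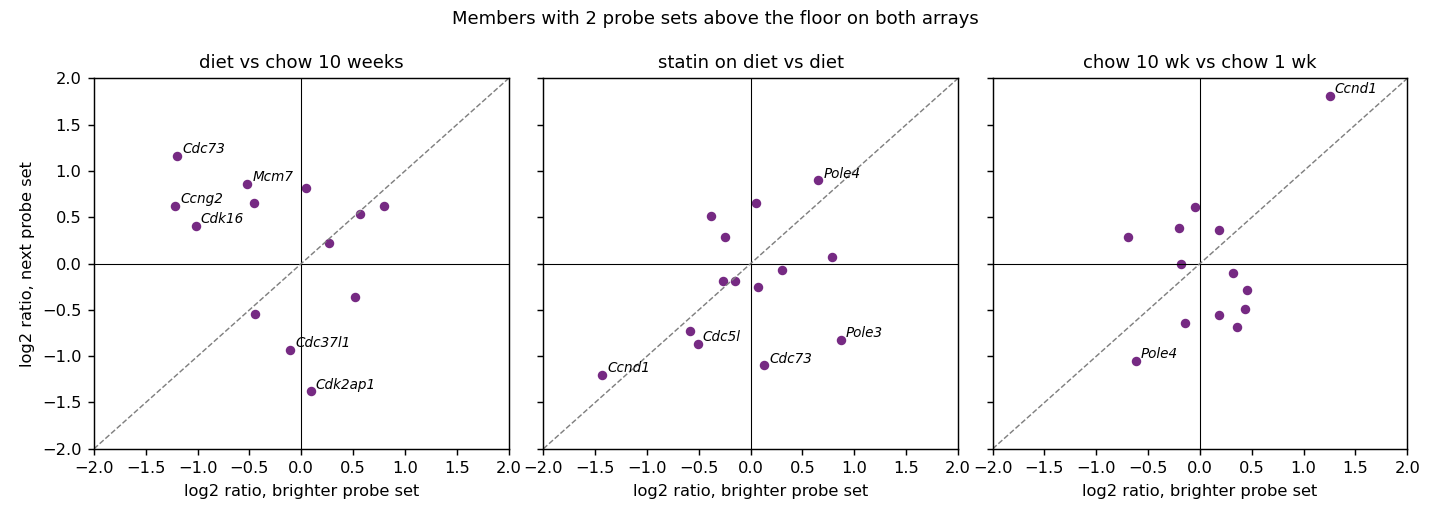
Log2 ratio from the next brightest probe set (vertical axis) against that from the brightest (horizontal axis) for members with both measured, in 3 comparisons; the diagonal marks equal ratios. For the diet at 10 weeks 6 of 13 pairs agree in sign, and for atorvastatin Ccnd1 lies beyond 2-fold on both axes.

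A separate list of 88 other genes of proliferation, which holds checkpoint, origin, kinesin and nucleotide synthesis genes outside the symbol rule, was read in the same way. Of 80 with a probe set, 26 were at the floor on all arrays, or 32.5%, and 30 above it on all, or 37.5%, close to the shares of the core members. For the diet at 10 weeks 1 of 47 measured was at least 2-fold higher and 0 lower, where 3.59% and 3.07% of all genes were. For the diet at 1 week 0 of 45 were higher and 2 lower, Cks1b and Orc4, beside 1.06% and 1.24%. For atorvastatin against the diet 1 of 48 was higher and 1 lower, beside 2.15% and 2.12%. Set against 10-week chow 3 of 45 were higher with atorvastatin, Foxm1, E2f1 and Aurka, and 0 lower, beside 3.05% and 2.46%. Between the chow arrays 1 of 46 was higher at 10 weeks, Tk1, and 3 were lower, Aurka, E2f5 and Orc4, beside 2.44% and 1.95%. A second probe set of Orc4, of the origin recognition complex, gave 0.56 for the diet at 1 week, against -1.07 from the brightest, and 0.26 for the chow pair, the opposite direction in both. That of Cks1b, a CDK-binding subunit, gave -0.12 at 1 week against -1.07. The list medians lay between -0.12 and 0.16.

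The gene above on the 10-week diet was Foxm1, a transcription factor of mitotic genes. It read 49.1, 41.5, 47.4, 318.3 and 309.0, high on both long diet arrays, with and without atorvastatin, and below the floor on the other 3, at least 2.29-fold above chow. Of the other Foxm1 probe sets 1 was above the floor on the 10-week diet array alone, at 222.6, and the other 2 were below the floor on all arrays. E2f1, a factor of S phase genes, read 139.5, 71.8, 127.5, 22.0 and 303.4, at least 2.18-fold higher with atorvastatin than on the diet, and its other probe set was below the floor throughout. Hmmr, a spindle protein, read 112.0, 145.3, 232.4, 314.0 and 153.2, 2.05-fold lower with atorvastatin. Hmmr was high on the 10-week chow and diet arrays and low on the rest, as Cdk1 was. Its other probe sets were at the floor on both arrays of that ratio.

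Whole liver holds many cell types, and in such bulk RNA fewer cells of a type and less RNA per cell cannot be told apart. Hepatocyte markers were above the floor on every array for 6 of 6 genes with a probe set, and their summed signal ran from 142493 on the 1-week diet to 292679 on 10-week chow. The 7 macrophage markers summed to 10174, 9526, 6549, 11797 and 16900, lowest on 10-week chow. Of the 6 measured there, 4 stood at least 2-fold higher on the 10-week diet than on chow, beside 3.59% of all genes. With atorvastatin 5 of 7 stood at least 2-fold above 10-week chow, beside 3.05%. In the chow pair 3 of 7 stood at least 2-fold lower at 10 weeks, beside 1.95%. The 5 endothelial markers summed to 3178 on the 10-week diet against 1580 to 2825 elsewhere, and the 3 erythroid markers to 827 against 399 to 583. Lymphocyte markers, with Cd2 at the floor, summed to 861 to 995, neutrophil markers, with Camp at the floor, to 906 to 1529, and stellate markers to 1134 to 2067. Cholangiocyte markers summed to 227 to 415, with Krt7, Epcam and Sox9 at the floor on all arrays. The 10-week diet array, on which Fen1 and Rfc1 were highest, held the highest endothelial, erythroid and neutrophil sums. Within the endothelial list Cdh5 read 406.0, 329.8, 254.9, 1034 and 196.2, while Stab2 was highest with atorvastatin and Lyve1 and Pecam1 on 1-week chow. Within the erythroid list Hba-a1 was lower on the 10-week diet than on 10-week chow, at 197.7 against 223.6. Within the neutrophil list Mpo was also lower on the 10-week diet than on 10-week chow, at 252.9 against 368.2. The part of these markers in the member ratios was not tested.

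The arrays were alike in scale, with 57.2% to 61.3% of probe sets above the floor and Spearman correlations of 0.911 to 0.946 between arrays. The ratio of 3′ to 5′ control signals lay between 0.783 and 1.01 for Gapdh and between 1.17 and 1.73 for beta-actin. The geometric mean signal of the ribosomal RNA control probe sets was 13944 on the atorvastatin array and 437 to 2185 on the other 4. The part of that difference in the atorvastatin ratios was not tested.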

How the data were processed

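For each array the authors deposited an intensity of every probe set, unlogged, which MAS5 produced, per the submitters' processing notes. Pooled liver RNA (10 µg per array, per the labels) was hybridised on 5 arrays. No detection call was used, and RefSeq GRCm38.p6 served only for promoter sequences and their coordinates.

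Arrays were rescaled to a common 2% trimmed mean, and 64 control probe sets were dropped. Of 22690 probe sets, 20393 have 1 symbol, 691 several and 1606 are not listed in the annotation used here. Signals were floored at the 40th percentile (138.9) and taken to log2, and the probe set with the highest mean log2 signal represents a gene. Ratios were counted past 2-fold, with no test. The ratio calculation was checked by planting set folds, without noise, on a copy of the 1-week chow array. That check did not cover the counts, the bounds or the background shares.

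Named were members past 2-fold in any comparison and preset genes of each function. All 5 signals are given for these except Cdk6, Mcm2, Mcm3 and Plk1, given in part, and genes at the floor on all arrays. Mcm10, Pold4, Fabp5 and the other genes given with part of their signals were chosen after their values were seen. The members, lists and rules were chosen with earlier results of these data known. Alternatives were quantile and cyclic loess scaling, a floor at the 20th or 60th percentile, a pseudocount of 100.0 instead of it, averaging a gene's probe sets, dropping x and s probe sets, 1.5-fold and 3-fold rules, and, as reference, the 1-week chow array or both chow arrays averaged. Python 3.11.15, pandas 2.3.3, numpy 2.4.6, R 4.3.3 and limma 3.58.1 were used.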

Additional observations from a re-analysis of the deposited data

Results flagged for a closer look

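For 5 members the diet ratio had opposite directions at the 2 feeding times, with log2 ratios at least 1 apart. The difference was not tested, since each ratio comes from 1 pair of arrays. Rrm1 gave 0.57 at 10 weeks and -1.18 at 1 week, a difference of 1.75. Cdk16 gave -1.02 and 0.16, a difference of -1.18. Pcna gave 0.28 and -0.87, a difference of 1.15, and Ccnd2 gave 0.88 and -0.24, a difference of 1.11. Cdk2ap2, which encodes a protein associated with Cdk2, gave 0.55 and -0.48, a difference of 1.03. A further probe set with values at both times had the same sign at both for Rrm1, 0.54 and at least 0.44, and for Ccnd2, at least 0.48 and 0.63. The further probe sets of Cdk16 gave 0.41 and 0.12, and 0.24 and -0.58. For these 3 genes the opposite directions thus depended on the probe set, and Pcna and Cdk2ap2 have 1 probe set each. The 5 members are 9.26% of the 54 measured at both times, against 1110 of 8423 genes, or 13.2%.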

How the results depend on the processing

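Of 96 member counts recomputed under an alternative, 42 stayed within 1.5 times the reported count and 54 did not. All 38 medians moved by less than the spread of the chow pair, a standard deviation of 0.48 over single genes. Member medians lay between -0.09 and 0.12 under every setting, so this spread was too wide to mark a move. The median for the 1-week diet, for example, went from -0.01 to 0.07 with quantile or loess scaling. The counts are of 10 members or fewer, so 1 gene often decides. In the order 10-week diet, 1-week diet, atorvastatin against the diet, atorvastatin against chow and chow pair, the counts that moved were as follows, and comparisons named in brackets did not move. With the floor at the 20th percentile, higher calls became 6, 3, 5, 5 and 5, and lower calls 8, 3, 8 and 6 (atorvastatin against the diet). With the 60th percentile, higher calls became 1, 0, 0 and 1 (atorvastatin against the diet), and lower calls 2, 0, 2 and 1 (chow pair). With a pseudocount, higher calls became 0 at 1 week, 1 for atorvastatin against the diet, 0 against chow and 1 for the chow pair, and lower calls 2, 0 and 1 for the 10-week diet, the 1-week diet and atorvastatin against chow. With the mean of all probe sets, higher calls became 1 for the 10-week diet and 1 for the chow pair, and lower calls 0, 0, 2 and 1 (chow pair). Without x and s probe sets the 10-week diet had 1 higher and 2 lower. With 1.5-fold, higher calls became 7, 3, 6, 4 and 7, and lower calls 7, 5, 10 and 6 (atorvastatin against the diet). With 3-fold, higher calls became 1, 0, 0 and 0 (atorvastatin against the diet), and lower calls 0, 0, 1 and 0 (chow pair). Quantile scaling gave 1 higher for atorvastatin against the diet, 0 against chow and 1 for the chow pair, loess gave 0 higher for atorvastatin against chow, and the 1-week chow reference gave 2 lower there. Lower calls for atorvastatin against the diet, 6.25% of members against 2.12% of all genes as reported, were 6.33% against 5.58% with the 20th percentile and 7.81% against 10.15% at 1.5-fold, so their excess over the background depended on the floor and the rule. With a pseudocount, lower calls for the 10-week diet were 2.27% against 2.03%, and for atorvastatin against chow 1.14% against 1.63%. The cause was not tested where the construction does not show it.

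For single members, 995 of 1076 ratios moved by less than the chow pair's spread, 80 moved by more and 1 was marked as reversed. That was Cdk16 for the 10-week diet, which gave 0.41 without x and s probe sets. Reversal was marked only where the reported ratio was at least 2-fold, so smaller ratios that changed sign are counted among the others. Fen1 kept a ratio of 1.14 to 2.32 for the 10-week diet wherever it could be computed, and without x and s probe sets it lay at the floor. Every one of these ratios rests on the same x probe set, and 1.14 is its ratio averaged with a probe set at the floor. For the same comparison Cdc73 gave -0.01, Ccng2 -0.30 and Rfc1 0.38 with the mean of all probe sets. Rrm2 gave a bound of -0.44 there without x and s probe sets, and -0.44 also for atorvastatin against 10-week chow, so neither passed 2-fold. Cdk12 gave -0.19 for atorvastatin against 1-week chow. No paired analysis was possible because each group has 1 array and replicate number 1 only. Signal over background limits the 42 members below the floor on at least 1 array.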
